A study of Mus musculus with 12 samples.

Results

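The genes described here encode 10 receptor tyrosine kinases of neural progenitors, namely Egfr, Erbb2, Erbb3, Erbb4, Pdgfra, Pdgfrb, Fgfr1, Fgfr2, Fgfr3 and Igf1r. They were taken by gene name from the 55401 genes of the expression tables, and all 10 were found. RNA was sequenced from adult neural stem/progenitor cells (aNSPCs) that were isolated from the brains of C57BL/6 mice aged 8 to 10 weeks and grown with EGF and FGF-2, each at 20 ng/mL. The medium also held the supplement B27. The cells were kept under proliferating conditions or placed under differentiation conditions with 1 µM retinoic acid and 5 µM forskolin, and each condition had a Ctrl group and a group exposed to 1 mM NAD+. There were 3 samples in each of the 4 groups, 12 in all. The study describes the 3 samples of a group as biological repeats. Neither the study nor the labels say whether they came from separate mice or cultures, so the p-values measure the spread between these samples. A label field calls all 12 samples untreated, and the groups used here follow the sample titles.

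A receptor tyrosine kinase spans the cell membrane, acts as a pair of receptors when a growth factor binds outside the cell, and phosphorylates tyrosines inside it. These phosphotyrosines recruit adaptor proteins that switch on the RAS-MAPK and PI3K-Akt pathways. In neural progenitors, EGF and FGF receptors carry the mitogenic signals on which neurosphere cultures depend, PDGFRα marks oligodendrocyte progenitors, and ERBB3, ERBB4 and IGF1R bind neuregulins or insulin-like growth factors. Epor and Il2rb, receptors for erythropoietin and interleukin-2 that lack a kinase of their own, were followed beside Pdgfrb and Erbb3 because the study names these 4 genes together.

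The values are FPKM (sequenced fragments per unit of transcript length and of library size), which allow levels to be compared between genes per length. They are rounded to 0.01, so the number of reads behind them is unknown and no counting error can be given. The FPKM values of a library summed to between 308828 and 363330, the highest being the proliferating Ctrl library of replicate 1, which also had the lowest correlation with its own group (r = 0.958 on the log2 scale, across genes). Mitochondrial genes took 16.5% to 19.9% of the FPKM total under proliferating conditions and 28.9% to 33.2% under differentiation conditions. As for the identity of the cells, 8 of the 9 progenitor markers listed had a mean FPKM of at least 1 in every group, with Fabp7, Slc1a3, Vim and Sox2 the highest, and Prom1 was under 1. A mean of at least 1 FPKM was also reached in every group by all 7 astrocyte markers and by 3 of 7 neuron markers. Of 11 oligodendrocyte lineage markers, 6 reached it in both proliferating groups and 9 in both differentiation groups. Markers of endothelial cells, meningeal fibroblasts and microglia summed to at most 0.45 FPKM in any library. In bulk samples, fewer cells of a type and less RNA per cell cannot be told apart.

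The receptors spanned a wide range of levels. Egfr, Fgfr3 and Fgfr1 were the most abundant of the 10 in every group, with group means between 17.4 and 30.5 FPKM, and Pdgfrb and Erbb3 were the least abundant, with group means between 0.04 and 0.307 FPKM. In the proliferating Ctrl group, Egfr (28.2 ± 3.05 FPKM, SD, n = 3) and Fgfr3 (25.2 ± 4.08 FPKM, SD, n = 3) overlapped between libraries, and Fgfr1 followed at 17.4 ± 2.32 FPKM (SD, n = 3). Pdgfra, Igf1r, Fgfr2 and Erbb2 lay close together there, with means from 3.57 down to 2.72 FPKM, and each overlapped with the next in the order. In the differentiation Ctrl group the order was Fgfr3, Egfr, Fgfr1, Erbb4, Fgfr2, Igf1r, Pdgfra and Erbb2, and only Pdgfra and Erbb2 among these neighbours overlapped. In both NAD+ groups, Fgfr3, Egfr and Fgfr1 could not be ordered beyond the spread of their libraries, and Fgfr1 had the highest mean of all under differentiation conditions with NAD+ (24.2 ± 2.46 FPKM, SD, n = 3).

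**Figure D1:**
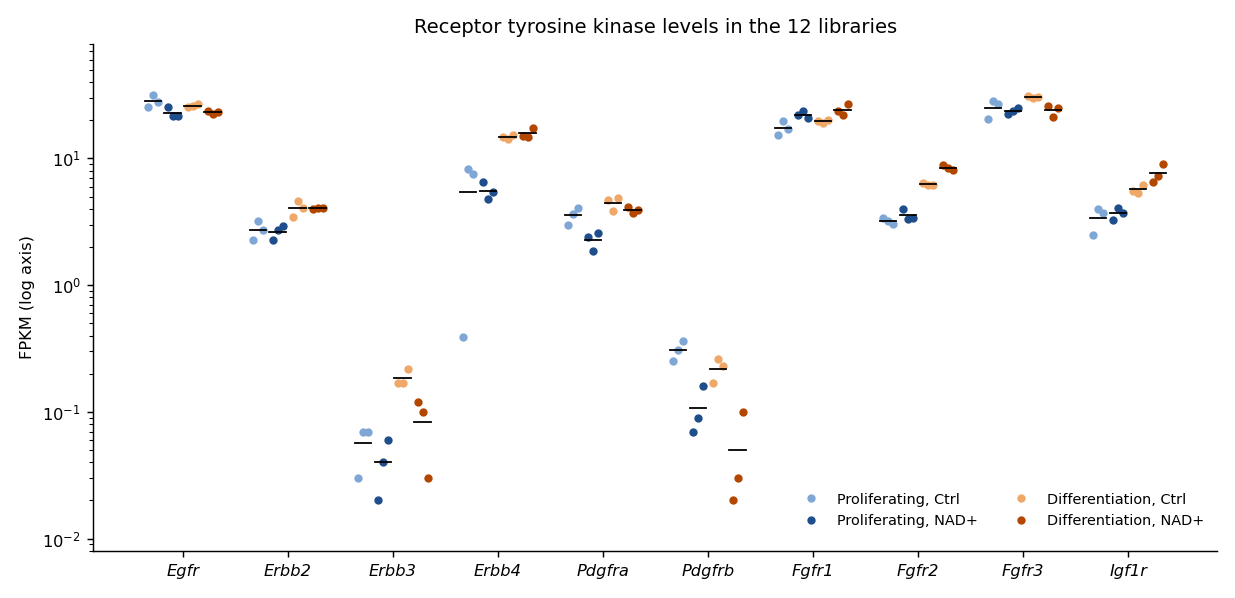
FPKM value (log axis) of each receptor in each of the 12 libraries, with 3 points per group and the group mean as a black line. Pdgfrb and Erbb3 lie under 0.4 FPKM in all libraries, and Erbb4 has 1 proliferating Ctrl library at 0.39 FPKM against 7.56 and 8.28 in the other two.

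Set among all receptor tyrosine kinases, most of the 10 were well expressed. Of 58 receptor tyrosine kinase genes listed, 32 had a mean of at least 1 FPKM over the 12 libraries, 8 of them from the 10 described here, and 19 were under 0.1. Fgfr3, Egfr, Fgfr1 and Erbb4 stood among the 10 highest. The 5 highest of the other 48 were Ddr1, a collagen receptor, at 165 FPKM, Ntrk2, the receptor for brain-derived neurotrophic factor, at 117, Axl and Tyro3, receptors for GAS6, at 26.9 and 17.7, and the WNT co-receptor Ryk at 21.6. The level of a receptor mRNA does not measure its protein or its phosphorylation, which the FPKM tables do not hold.

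**Figure D2:**
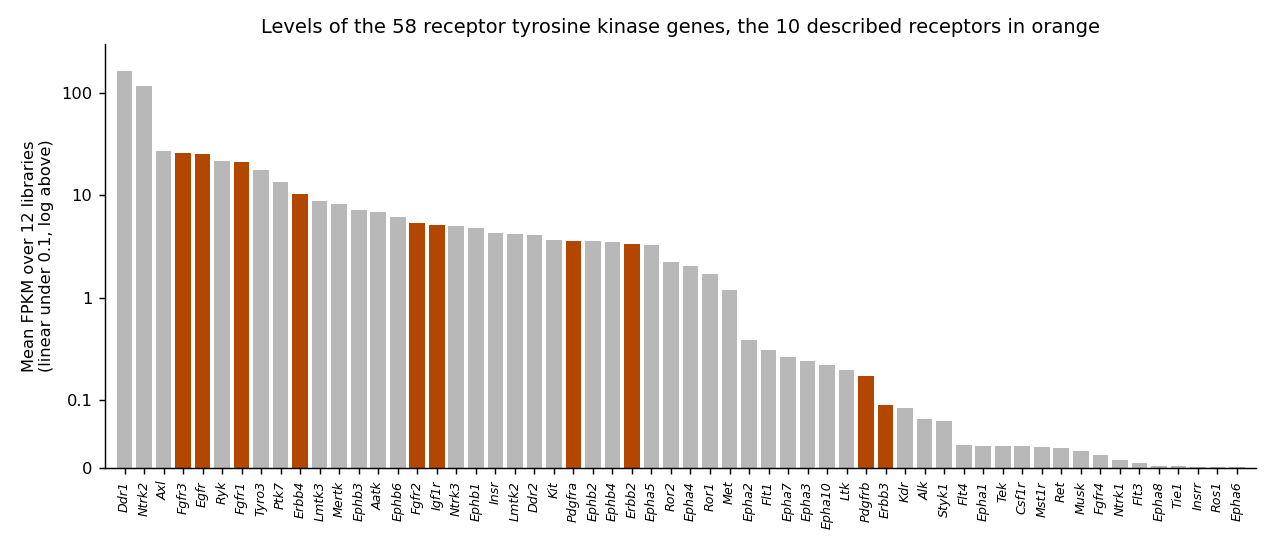
Mean FPKM over the 12 libraries of 58 receptor tyrosine kinase genes in descending order (axis linear under 0.1 and logarithmic above), the 10 described receptors in orange and the other 48 in grey. Ddr1 and Ntrk2 stand above 100 FPKM, 4 of the orange bars are among the 10 highest, and Pdgfrb and Erbb3 are under 0.2.

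Differentiation went with higher levels of several receptors. In limma fits of log2(FPKM + 0.1), a scale that understates the change of low genes, 4 of the 9 receptors that passed the filter (a mean of at least 0.1 FPKM, which Erbb3 missed) rose from proliferating to differentiation Ctrl samples with a Benjamini-Hochberg adjusted p under 0.05. They were Fgfr2, Erbb4, Igf1r and Erbb2, and none fell. This comparison moved a large part of the transcriptome, as 56.7% of the 19498 genes tested passed and 25.0% passed by rising (4884 rose and 6164 fell, or 6365 and 4762 with median-ratio scaling). Among the NAD+ samples, Fgfr2, Igf1r, Erbb2 and Pdgfra rose and none fell, against 58.4% of all genes passing and 20.8% rising (4050 rose and 7336 fell, or 6269 and 4779 with median-ratio scaling). Other receptor tyrosine kinases rose as well. Of 30 tested, 14 rose and 3 fell in Ctrl, and 13 rose and 10 fell with NAD+. Their median log2 fold changes were 0.45 and 0.18, against 0.32 and 0.60 for the 9 receptors.

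Fgfr2, which binds members of the FGF family, had FPKM values of 3.36, 3.19 and 3.03 in the proliferating Ctrl libraries and of 6.43, 6.19 and 6.15 in the differentiation Ctrl libraries. The 2 groups did not come near each other, and the log2 fold change was 0.95 (SE 0.09, limma adjusted p = 5.06e-06). With NAD+ it went from 3.99, 3.30 and 3.41 FPKM to 8.80, 8.43 and 8.16 FPKM, a log2 fold change of 1.23 (SE 0.09, limma adjusted p = 5.96e-07). Fgfr2 thus passed under differentiation in the Ctrl and the NAD+ samples alike, and it did so under all 20 alternative settings of either comparison. Its span in the GENCODE annotation (chromosome 7, 130162451 to 133123350 of mm10, minus strand) runs over many other genes, and 314 of its 10328 exon bases are shared with Ctbp2 on the same strand, at a mean of 6.98 FPKM.

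Igf1r, the receptor for insulin-like growth factors, had 2.49, 3.98 and 3.71 FPKM in the proliferating and 5.55, 5.38 and 6.14 FPKM in the differentiation Ctrl libraries. All 3 differentiation libraries were above all 3 proliferating ones (log2 fold change 0.75, SE 0.18, limma adjusted p = 0.00382). In the NAD+ libraries it went from 3.25, 4.09 and 3.70 FPKM to 6.48, 7.32 and 9.12 FPKM (log2 fold change 1.03, SE 0.18, limma adjusted p = 0.000457). Erbb2, which binds no ligand itself and serves as the partner of the other ERBB receptors, had 2.26, 3.18 and 2.72 FPKM in the proliferating and 3.46, 4.63 and 4.06 FPKM in the differentiation Ctrl libraries. Again the groups did not overlap, and the log2 fold change was 0.56 (SE 0.15, limma adjusted p = 0.00707) in Ctrl and 0.60 (SE 0.15, limma adjusted p = 0.00439) in the NAD+ samples.

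Erbb4, a neuregulin receptor, had 8.28 and 7.56 FPKM in the proliferating Ctrl libraries of replicates 2 and 3 but 0.39 FPKM in that of replicate 1. The differentiation Ctrl libraries had 14.70, 14.25 and 15.26 FPKM, the proliferating NAD+ libraries 6.46, 4.79 and 5.43 FPKM and the differentiation NAD+ libraries 15.03, 14.87 and 17.32 FPKM. Every differentiation library was therefore above every proliferating one, and a single library set the spread. The log2 fold change in Ctrl was 2.23 (SE 0.82, limma adjusted p = 0.038). This call held in 15 of 20 alternatives and was lost with no filter on low values, with no moderation and without any 1 of the differentiation Ctrl libraries (limma adjusted p up to 0.0818). Without replicate 1 of the proliferating Ctrl group it was 0.89 (SE 0.12, limma adjusted p = 0.000138). Among the NAD+ samples it was 1.49 (SE 0.82, limma adjusted p = 0.144) with that library in the shared estimate of the spread and 1.49 (SE 0.11, limma adjusted p = 1.25e-06) without it.

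Pdgfra, the receptor for PDGF-A, had 2.97, 3.67 and 4.08 FPKM in the proliferating and 4.66, 3.82 and 4.90 FPKM in the differentiation Ctrl libraries, which overlapped (log2 fold change 0.32, limma adjusted p = 0.104). In the NAD+ samples it rose from 2.41, 1.86 and 2.59 FPKM to 4.14, 3.71 and 3.95 FPKM (log2 fold change 0.77, SE 0.15, limma adjusted p = 0.00128). The difference between these 2 log2 fold changes was 0.45 (SE 0.22) and did not pass the test of the difference (limma adjusted p = 0.348). Summed FPKM of 11 oligodendrocyte lineage markers fell, from between 1305 and 1426 to between 585 and 610 in Ctrl and from between 1051 and 1080 to between 428 and 447 with NAD+. Olig1 and Olig2 made up most of this sum under proliferating conditions, and in Ctrl their means went from 961 to 224 and from 334 to 118 FPKM. Of 10 of these markers tested, 6 rose and 2 fell by adjusted p in Ctrl, and 5 rose and 2 fell with NAD+. The median log2 fold changes of the 10 were 1.12 and 1.03. Within that list, Olig1 and Olig2 had lower and Cnp, Enpp6 and Mbp higher group means under differentiation conditions, and the part of such cells in the receptor levels was not tested.

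Egfr, Fgfr1 and Fgfr3, the 3 abundant receptors, did not pass in either comparison, with log2 fold changes from -0.12 to 0.29. How they stood depended on the scaling between libraries. Median-ratio scaling moved the median log2 fold change of all genes from -0.06 to 0.14 in Ctrl and from -0.20 to 0.14 in the NAD+ samples, and with it 7 of the 9 receptors rose in each comparison. Fgfr1 then had a log2 fold change of 0.41 in Ctrl and 0.51 with NAD+ (limma adjusted p = 0.00414 and 0.00101) and Fgfr3 of 0.51 and 0.40 (limma adjusted p = 0.00169 and 0.00738). Egfr changed its sign in Ctrl, from -0.12 to 0.10 (limma adjusted p = 0.349), and reached 0.41 with NAD+ (limma adjusted p = 0.00239). The rank of a gene within its own library does not need a scaling, and the mean percentile of Egfr among the genes above 0 went from 92.3 to 94.2 in Ctrl and from 90.2 to 93.4 with NAD+, without overlap in either. The other receptors with a mean of at least 1 FPKM rose in percentile without overlap as well. The share of all genes that did so is not given here, so these rises do not set the receptors apart. A percentile still depends on the other genes of the library, of which 21695 to 22904 were above 0 under proliferating and 22711 to 24022 under differentiation conditions.

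**Figure D3:**
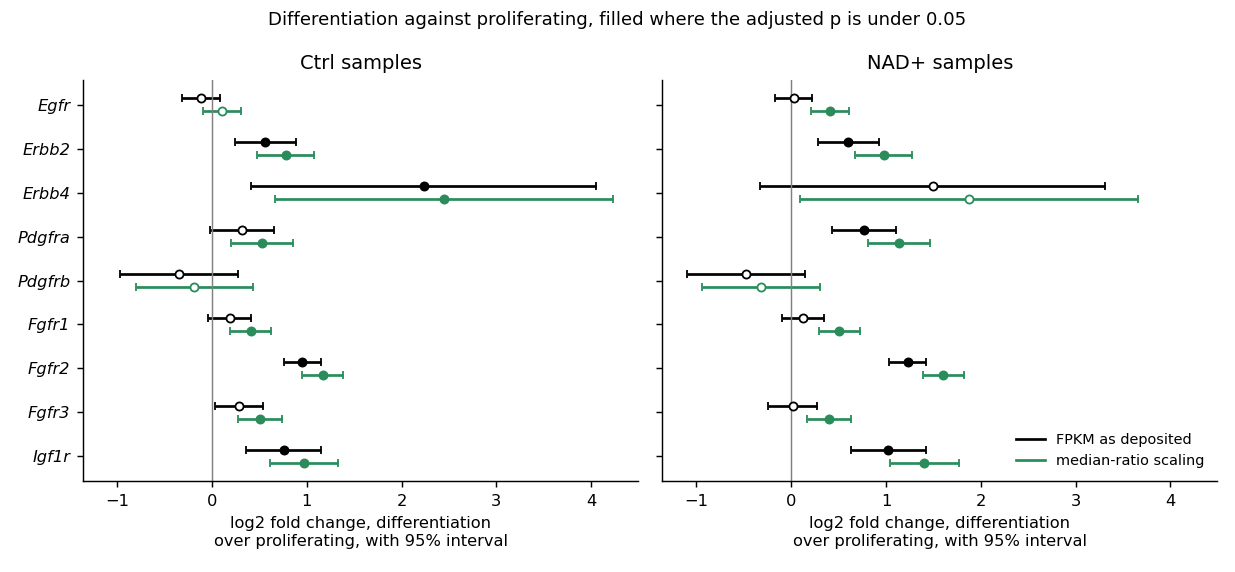
log2 fold change (differentiation over proliferating, on log2(FPKM + 0.1)) with its 95% confidence interval for the 9 receptors tested, in Ctrl samples at the left and NAD+ samples at the right, as deposited in black and with median-ratio scaling in green. Filled points have an adjusted p under 0.05. Fgfr2, Igf1r and Erbb2 are filled in all 4 fits, and the intervals of Erbb4 are the widest.

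Since retinoic acid and forskolin were given under differentiation conditions, the promoters of the 4 receptors that rose in the Ctrl samples are shown with the core half-site of retinoic acid receptors (AGGTCA) and the half-site of the cAMP response element (TGACG). Both strands were searched, and capitals mark the matches. The sequences are the 250 bases before the start of the gene in RefSeq (GRCm38.p6), 5′ to 3′ on the strand of the gene. Erbb2 (chromosome 11, 98412234 to 98412483, plus strand), Erbb4 (chromosome 1, 69108060 to 69108309, minus strand), Fgfr2 (chromosome 7, 130266809 to 130267058, minus strand) and Igf1r (chromosome 7, 67952007 to 67952256, plus strand) read as follows.
Erbb2: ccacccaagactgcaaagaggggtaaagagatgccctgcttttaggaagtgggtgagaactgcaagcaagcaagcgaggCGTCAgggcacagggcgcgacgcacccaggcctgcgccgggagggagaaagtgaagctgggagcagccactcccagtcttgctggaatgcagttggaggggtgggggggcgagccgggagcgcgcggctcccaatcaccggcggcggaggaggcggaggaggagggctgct
Erbb4: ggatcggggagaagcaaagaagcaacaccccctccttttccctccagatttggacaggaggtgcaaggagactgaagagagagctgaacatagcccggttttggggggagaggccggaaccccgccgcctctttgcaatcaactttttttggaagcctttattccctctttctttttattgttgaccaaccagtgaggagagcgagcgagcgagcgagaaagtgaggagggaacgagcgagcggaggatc
Fgfr2: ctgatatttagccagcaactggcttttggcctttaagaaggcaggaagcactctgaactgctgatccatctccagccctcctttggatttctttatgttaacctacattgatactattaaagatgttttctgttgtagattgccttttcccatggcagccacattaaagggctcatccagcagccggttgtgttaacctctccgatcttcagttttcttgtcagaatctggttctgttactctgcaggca
Igf1r: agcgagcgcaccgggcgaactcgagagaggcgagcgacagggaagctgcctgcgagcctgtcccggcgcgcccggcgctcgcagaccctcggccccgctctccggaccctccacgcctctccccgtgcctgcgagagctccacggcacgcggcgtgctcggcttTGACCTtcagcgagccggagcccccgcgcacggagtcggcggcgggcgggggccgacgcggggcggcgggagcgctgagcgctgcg
Erbb2 held 1 match to TGACG and Igf1r 1 match to AGGTCA, while neither motif was found in the windows of Erbb4 and Fgfr2. Of all 32851 RefSeq promoters of this length, 14.0% held AGGTCA and 17.8% held TGACG. The number of CpG dinucleotides was 16 for Erbb2, 12 for Erbb4, 2 for Fgfr2 and 42 for Igf1r, against a median of 6 over all promoters. Promoter windows were taken for 7 of the 10 receptors, and the RefSeq start of Fgfr2 lies inside its GENCODE span.

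With NAD+ under differentiation conditions, Fgfr2 rose and the other receptors did not pass the adjusted threshold. Of all 10 receptors, tested here, 1 rose and 0 fell by a limma adjusted p under 0.05, against 6.92% of the 19611 genes tested (2.27% higher and 4.65% lower). With median-ratio scaling 599 genes were higher and 562 lower, in place of 445 and 912, and the 1 receptor that passed was again Fgfr2. An unadjusted limma p under 0.05 was reached by 6 of the 10 receptors, against 24.2% of all genes tested. The 3 NAD+ libraries did not overlap the 3 Ctrl libraries for 7 of the 10 receptors, with Fgfr1, Fgfr2 and Igf1r higher and Egfr, Fgfr3, Pdgfrb and Erbb3 lower with NAD+. The share of all tested genes without overlap was 30.7% (9.68% higher and 21.1% lower). In each case the exact permutation test gave p = 0.10, the smallest that 3 samples against 3 allow.

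Fgfr2 had FPKM values of 6.43, 6.19 and 6.15 in Ctrl and of 8.80, 8.43 and 8.16 with NAD+. The gap between the groups was wider than the range within either, and the means of 6.26 ± 0.151 and 8.46 ± 0.321 FPKM (SD, n = 3 each) gave a log2 fold change of 0.43 (SE 0.06, limma adjusted p = 0.0149). The adjusted p lay between 0.00949 and 0.0599 over its 14 alternatives, and it was above 0.05 when any 1 of the Ctrl libraries was left out (0.0561, 0.0582 and 0.0599 without replicates 1, 2 and 3). The log2 fold change stayed between 0.38 and 0.50.

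The other FGF receptors, Fgfr3 and Fgfr1, did not pass with the filter used here. Fgfr3 was lower and Fgfr1 higher under all 14 alternatives, which draw on the same libraries and add no independent support. Fgfr3, another FGF receptor and one that astrocytes are known to express, had 31.07, 29.79 and 30.59 FPKM in Ctrl and 26.04, 21.08 and 25.10 FPKM with NAD+. All 3 NAD+ libraries were lower, with a log2 fold change of -0.35 (SE 0.09, limma adjusted p = 0.065). The limma adjusted p of Fgfr3 was 0.0496 when only genes with a mean of at least 1 FPKM were tested and 0.143 with median-ratio scaling. Fgfr1, a receptor for FGF-2, had 19.91, 19.15 and 20.02 FPKM in Ctrl and 23.82, 22.01 and 26.87 FPKM with NAD+, so all NAD+ libraries were higher (log2 fold change 0.29, SE 0.08, limma adjusted p = 0.0826). Fgfr3 shares 998 exon bases with the gene model G630022F23Rik on the opposite strand, which had a mean of 1.69 FPKM, and reads from the 2 cannot be told apart if the counting did not use strand. Markers of astrocytes and progenitors moved in both directions in the same comparison. Of 7 astrocyte markers, Gfap and Slc1a2 rose by 0.72 and 0.26 on the log2 scale while Aldh1l1 fell by 0.61 and Aldoc fell by 0.35. The summed level of the 7 went from between 1318 and 1426 FPKM in Ctrl to between 1567 and 1692 with NAD+. Most of that rise was Gfap, whose mean went from 595 to 977 FPKM. The median log2 fold change of the 7 was -0.315, with 3 above 0 and 4 under 0. Of 9 progenitor markers, 3 rose and 2 fell, among them Vim, Sox9 and Slc1a3 higher and Hes5 lower, and the sums were 1114 to 1187 FPKM in Ctrl and 1212 to 1293 with NAD+. The part of such cells in the receptor values was not tested.

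Igf1r had 5.55, 5.38 and 6.14 FPKM in Ctrl and 6.48, 7.32 and 9.12 FPKM with NAD+. The groups did not overlap, and the log2 fold change was 0.41 (SE 0.13, limma adjusted p = 0.128). Egfr, the receptor for EGF and TGF-α, had 25.24, 25.70 and 26.69 FPKM in Ctrl and 23.86, 22.48 and 23.20 FPKM with NAD+. In FPKM as deposited, its difference was small against its level but larger than the spread of the libraries (log2 fold change -0.16, SE 0.05, limma adjusted p = 0.115). With median-ratio scaling, the log2 fold change of Egfr was -0.08 (limma adjusted p = 0.429). Erbb2, Erbb4 and Pdgfra overlapped between the groups, with log2 fold changes of 0.01, 0.09 and -0.17 and limma adjusted p-values of 0.984, 0.508 and 0.416.

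Under proliferating conditions, 0 of the 9 receptors tested passed a limma adjusted p of 0.05 with NAD+, against 0.145% of the 18597 genes tested. An unadjusted limma p under 0.05 was reached by 4 of them, Egfr, Fgfr1, Pdgfra and Pdgfrb, against 15.4% of all genes. Groups without overlap were found for Fgfr1, which was higher, and for Pdgfra and Pdgfrb, which were lower with NAD+ (3 of 9, against 24.1% of all genes tested, 15.5% higher and 8.59% lower). Erbb3, under the filter, overlapped.

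Pdgfra had 2.97, 3.67 and 4.08 FPKM in Ctrl and 2.41, 1.86 and 2.59 FPKM with NAD+. Every NAD+ library was lower than every Ctrl library, with a log2 fold change of -0.62 (SE 0.18, limma adjusted p = 0.203). Fgfr1 had 15.21, 19.83 and 17.13 FPKM in Ctrl and 22.09, 23.68 and 20.78 FPKM with NAD+ (log2 fold change 0.36, SE 0.12, limma adjusted p = 0.239). Egfr had 25.32, 31.39 and 27.83 FPKM in Ctrl and 25.44, 21.55 and 21.49 FPKM with NAD+, where 1 NAD+ library reached the lowest Ctrl library (log2 fold change -0.30, SE 0.11, limma adjusted p = 0.283). Fgfr2, Fgfr3, Igf1r and Erbb2 had log2 fold changes between -0.07 and 0.15, all within the spread of the libraries.

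For Erbb4 the proliferating Ctrl library at 0.39 FPKM decided the direction. With all libraries the log2 fold change with NAD+ was 0.83 (SE 1.04, limma adjusted p = 0.726), and without that library it was -0.51 (limma adjusted p = 0.172). The 2 remaining Ctrl libraries, at 8.28 and 7.56 FPKM, were both above the 3 NAD+ libraries at 6.46, 4.79 and 5.43 FPKM. Neither value passed the threshold.

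**Figure D4:**
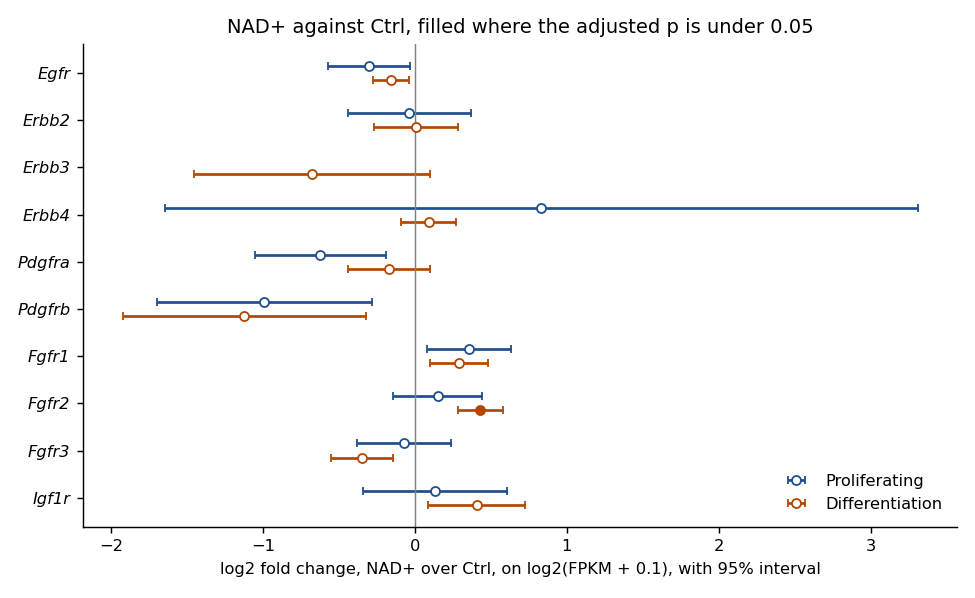
log2 fold change of NAD+ over Ctrl with its 95% confidence interval for each receptor, under proliferating (blue) and differentiation (orange) conditions, from limma on log2(FPKM + 0.1). Erbb3 was under the filter in proliferating samples, and the filled point, Fgfr2 under differentiation conditions, is the 1 value with an adjusted p under 0.05.

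Pdgfrb and Erbb3 belong to the low end of the transcriptome. Pdgfrb encodes the receptor for PDGF-B, known as a marker of pericytes and other mural cells, and Erbb3 encodes a neuregulin receptor with a weak kinase that signals through its partners, known from oligodendrocyte and Schwann cells. Under proliferating conditions Pdgfrb had 0.25, 0.31 and 0.36 FPKM in Ctrl and 0.07, 0.09 and 0.16 FPKM with NAD+. Under differentiation conditions it had 0.17, 0.26 and 0.23 FPKM in Ctrl and 0.02, 0.03 and 0.10 FPKM with NAD+. The NAD+ libraries were the lower ones in both conditions, and at these values a step of 0.01 FPKM is a sizeable part of the level.

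By the rule of an unadjusted limma p under 0.05 and a ratio of means above 2-fold, Pdgfrb was the 1 receptor called in each condition, lower with NAD+ in both, against 3.01% of all genes tested (1.41% lower) under proliferating and 4.05% (2.69% lower) under differentiation conditions. The ratio of its mean FPKM with NAD+ to that in Ctrl was 0.348 and 0.227. By adjusted p it passed in neither, with log2 fold changes of -0.99 (SE 0.30, limma adjusted p = 0.214) and -1.12 (SE 0.33, limma adjusted p = 0.104). Without proliferating Ctrl replicate 3, Pdgfrb was not called by the 2-fold rule under proliferating conditions.

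Erbb3 had 0.03, 0.07 and 0.07 FPKM in Ctrl and 0.02, 0.04 and 0.06 FPKM with NAD+ under proliferating conditions, where the groups overlapped. Under differentiation conditions it had 0.17, 0.17 and 0.22 FPKM in Ctrl and 0.12, 0.10 and 0.03 FPKM with NAD+. There the groups did not overlap, although the difference missed an unadjusted p of 0.05 with the filter on low values (log2 fold change -0.68, SE 0.32, limma adjusted p = 0.264). The study also measured Pdgfrb, Epor, Erbb3 and Il2rb by RT-PCR and reports that NAD+ significantly lowered each. The Erbb3 primers show which part of the transcript that assay reads. They lie in the coding exons 19 and 20 of 28, on chromosome 10 from 128573211 to 128573233 (forward) and from 128572897 to 128572916 (reverse) of mm10, and span 107 bases of the transcript. RT-PCR values are not analysed here.
Erbb3 forward primer: tctgcattaaagtcatcgaggac
Erbb3 reverse primer: cagccgtacaatgtgggcat

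The abundant receptors give a measure of how low these 2 genes were. In the proliferating Ctrl group the mean of Egfr was 28.2 FPKM, that of Pdgfrb 0.307 and that of Erbb3 0.0567. Among genes with a value above 0, Egfr lay between percentile 91.0 and 93.5 of the proliferating Ctrl libraries, Pdgfrb between 27.9 and 33.8, and Erbb3 between 6.89 and 15.4. In the differentiation NAD+ group, Pdgfrb lay between percentile 4.08 and 17.9. Pdgfrb and Erbb3 overlapped in their levels within both differentiation groups, and no order between them holds there.

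The 2 cytokine receptors were low as well. Il2rb had 0.55, 0.60 and 0.53 FPKM in Ctrl and 0.25, 0.21 and 0.14 FPKM with NAD+ under differentiation conditions, the 1 gene of these 4 that passed by adjusted p (0.0356 from limma). It passed in only 3 of the 13 alternatives in which it was tested, with limma adjusted p-values from 0.0276 to 0.119, and missed the threshold whenever a library was left out. It lay between 0.00 and 0.09 FPKM in all proliferating libraries. Epor had 0.95, 1.17 and 0.61 FPKM in Ctrl and 0.50, 0.45 and 0.28 FPKM with NAD+ under differentiation conditions, without overlap. Under proliferating conditions Epor was at 0.75 FPKM in Ctrl replicate 1, the library with the low Erbb4 value, and between 0.24 and 0.39 FPKM in the other 5.

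**Figure D5:**
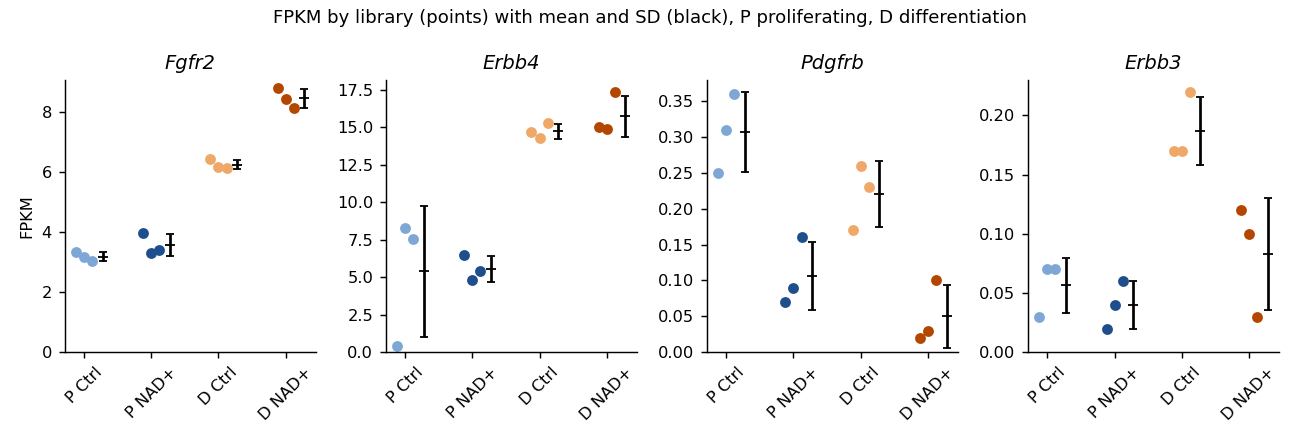
FPKM values of Fgfr2, Erbb4, Pdgfrb and Erbb3 in the 3 libraries of each group (points) with the mean and SD (black), on linear axes from 0. Fgfr2 is highest in the differentiation NAD+ group at 8.16 to 8.80 FPKM, Pdgfrb is lower with NAD+ in both conditions, and Erbb3 is higher in the differentiation Ctrl group than in the other 3 groups.

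Markers of mural and oligodendrocyte lineage cells are given beside these low receptors, and the mural markers did not move in a single direction. The 9 mural markers other than Pdgfrb summed to between 18.6 and 21.0 FPKM in Ctrl and between 14.8 and 16.0 with NAD+ under proliferating conditions, and to between 15.4 and 16.5 in Ctrl and between 10.3 and 11.9 with NAD+ under differentiation conditions. Most of this was Notch3, the 1 gene of the list with a mean of at least 1 FPKM, which progenitors also express and which fell under differentiation conditions (log2 fold change -0.74, limma adjusted p = 0.00665). Of 5 mural markers tested there, 1 rose and 1 fell, against 2.27% higher and 4.65% lower of all genes tested. The one that rose was Kcnj8, a potassium channel subunit of pericytes, from 0.13 to 0.587 FPKM (limma adjusted p = 0.028). Rgs5 was at 0.403 FPKM in Ctrl and 0.603 with NAD+ (limma adjusted p = 0.259), and Acta2 at 0.01 and 0 FPKM. Of 10 oligodendrocyte lineage markers tested under differentiation conditions, 3 fell with NAD+ and none rose, against the same 4.65% lower and 2.27% higher. Among those that fell were Enpp6 by 1.44 and Cnp by 0.70 on the log2 scale (limma adjusted p = 0.0153 and 0.0147). The part of such cells in the Pdgfrb and Erbb3 values was not tested.

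Whether NAD+ acted differently on a receptor in the 2 conditions was tested as a difference of the log2 fold changes in 1 fit of all 12 libraries. Of the 9 receptors tested, 0 passed a limma adjusted p of 0.05, against 0.467% of the 19498 genes tested. Median-ratio scaling moved the median difference of all genes from -0.16 to -0.0042. For Fgfr2 the effect was larger by 0.28 under differentiation conditions (SE 0.13, limma adjusted p = 0.321). It was the 1 receptor with an unadjusted limma p under 0.05, which 15.5% of all genes tested reached. The estimate was 0.45 for Pdgfra (SE 0.22) and -0.27 for Fgfr3 (SE 0.16). For Erbb4 it was -0.74 (SE 1.17) with all libraries and 0.60 without the proliferating Ctrl library of replicate 1.

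The pathways on both sides of the receptors were described from lists of ligands, adaptors, kinases, inhibitors and target genes. Under proliferating conditions no gene of any of these lists passed an adjusted p of 0.05 with NAD+. Under differentiation conditions, 4 of 9 transcriptional targets of the MAPK pathway rose with NAD+ and 0 fell, against 2.27% higher and 4.65% lower of all genes tested. The median log2 fold change of the 9 was 0.42, against -0.09 for all genes tested. They were Ier3, Egr1, Etv5 and Fos, all of them genes that growth factor signalling is known to induce. The median of the 10 receptors themselves was -0.08.

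Ier3 had 6.87, 8.30 and 9.18 FPKM in Ctrl and 14.74, 16.27 and 22.41 FPKM with NAD+ under differentiation conditions (log2 fold change 1.11, SE 0.18, limma adjusted p = 0.0202). Egr1, an immediate early transcription factor, had 4.48, 5.13 and 6.22 FPKM in Ctrl and 9.39, 11.51 and 11.86 FPKM with NAD+. Etv5 and Fos, with log2 fold changes of 0.91 and 0.69 (limma adjusted p = 0.0186 and 0.00616), were likewise higher in every NAD+ library. The effect on Ier3 differed between the conditions (difference of the log2 fold changes 1.28, limma adjusted p = 0.0342), and those on Egr1, Etv5 and Fos did not pass that test, with adjusted p-values of 0.632, 0.359 and 0.325.

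Of 20 feedback inhibitors tested under differentiation conditions, Dusp5, a phosphatase of ERK, rose from 0.81 ± 0.0755 to 1.67 ± 0.367 FPKM (SD, n = 3 each, log2 fold change 0.94, limma adjusted p = 0.0392). Grb14, an adaptor that dampens insulin receptor signalling, fell from 0.493 to 0.16 FPKM (limma adjusted p = 0.0322), a level under 1 FPKM, and the other 18 did not pass. Of 29 genes of the PI3K-Akt pathway, 2 rose and 0 fell, a share near the 6.92% of all genes that passed. Both encode insulin receptor substrates. Irs1 had 3.41, 3.59 and 3.56 FPKM in Ctrl and 4.86, 5.46 and 6.14 FPKM with NAD+ (log2 fold change 0.62, SE 0.10, limma adjusted p = 0.0211). Irs2 rose from 12.3 ± 0.278 to 15.7 ± 1.10 FPKM (SD, n = 3 each, log2 fold change 0.34, limma adjusted p = 0.0343). Pik3r3, a regulatory subunit of PI3K, passed the test of the difference between the conditions (-0.90, SE 0.15, limma adjusted p = 0.0395), with a log2 fold change with NAD+ of 0.54 under proliferating and -0.36 under differentiation conditions, neither of which passed (limma adjusted p = 0.109 and 0.108). With median-ratio scaling 0 of the 29 passed that test. Among 19 adaptors and kinases of the RAS-MAPK cascade, Map2k2 fell by 0.31 on the log2 scale (limma adjusted p = 0.0304), and with median-ratio scaling none of them fell and 1 rose.

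Of the ligands, Fgf1 was the 1 gene that passed. It encodes acidic FGF, which binds all FGF receptors, and had 9.55, 9.77 and 8.64 FPKM in Ctrl and 5.43, 5.81 and 4.85 FPKM with NAD+ under differentiation conditions (log2 fold change -0.79, SE 0.09, limma adjusted p = 0.00869). Under proliferating conditions its log2 fold change was 0.23 (limma adjusted p = 0.353), and the difference between the conditions passed its own test (-1.02, SE 0.14, limma adjusted p = 0.0177). None of the 5 ligands of the EGF and neuregulin family and of the 3 PDGF genes that were tested passed under differentiation conditions. The genes for IGF-1, IGF-2 and insulin summed to at most 0.25 FPKM in any library, while Igf1r itself lay between 2.49 and 9.12 FPKM. Ligands supplied by the medium, which held B27, would not appear in these values.

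Of the other receptor tyrosine kinases, 30 of 48 were tested under differentiation conditions, and 3 fell with NAD+ while 0 rose (3 and 1 with median-ratio scaling), against 4.65% lower and 2.27% higher of all genes tested. Axl fell by 0.42, Aatk by 0.78 and Ephb1, an ephrin receptor, by 0.78 on the log2 scale (limma adjusted p = 0.00991, 0.0223 and 0.00829). The median log2 fold change of the 30 was -0.14, that of the 10 described receptors -0.08 and that of all genes tested -0.09. Each of the other 2 tests of the NAD+ effect covered 30 genes of the list as well, though not all the same ones. In these, 0 passed under proliferating conditions or in the test of the difference between the conditions.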

How the data were processed

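Total RNA of the 12 samples was sequenced. The authors mapped the reads to mm10 with Hisat2 2.0.5, kept uniquely mapped reads, counted them with FeatureCounts 2.0.1 and deposited FPKM values, in a table for each condition. The strand setting and the program behind the FPKM values are not given in the sources used here. The tables also hold the authors' own comparison of NAD+ with Ctrl (fold change, p-value and q-value), which was not used. FPKM is scaled within each library, so the 2 tables were set side by side as deposited. Gene positions come from GENCODE M21, in which 55141 of the 55401 gene IDs were found.

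The receptors and gene lists were chosen with earlier results of these data known. Genes under a mean FPKM of 0.1 were left out, and limma 3.58.1 (R 4.3.3) was run on log2(FPKM + 0.1) (moderated variance with a trend, two-sided, Benjamini-Hochberg adjustment over all tested genes), on 6 samples for NAD+ against Ctrl within a condition and on all 12 samples for the comparison of conditions and for the difference of the NAD+ effects. The code was tested on simulated data. The 2-fold rule used the ratio of mean FPKM, with values of 0 set to 0.0001. Exact permutation tests were two-sided over 20 splits. Genes named beside the 10 receptors, Epor and Il2rb were those of each list with an adjusted p under 0.05 with NAD+ and a mean of at least 1 FPKM (at most 4 per list and condition), the 5 most abundant other receptor tyrosine kinases, and at most 4 markers per list, those of highest mean. Grb14, Kcnj8, Rgs5, Acta2, Pik3r3, Aldh1l1, Slc1a2, Sox9, Hes5, Prom1, Mbp and the gene models that overlap Fgfr2 and Fgfr3 were named after their values were seen. One marker gene that the rule would name is not reported here. Alternatives were 1 or 0.01 added before log2, no filter or a minimum mean of 1 FPKM, median-ratio scaling, quantile normalization, the replicate number as a block, no moderation, and leaving out each library. Python 3.11.15 and matplotlib 3.10.9 made tables and figures.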

Additional observations from a re-analysis of the deposited data

How the results depend on the processing

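The number of receptors that passed with NAD+ under differentiation conditions was 2 with a minimum mean FPKM of 1 and between 0 and 1 when a library was left out (0 without any of the 3 Ctrl libraries). From proliferating to differentiation conditions, median-ratio scaling gave 7 receptors in Ctrl and 7 with NAD+, and quantile normalization 9 and 7, with leave-one-out counts of 3 to 6 and of 4 to 5. With either scaling these receptors rose, except Pdgfrb, which was lower in Ctrl with quantile normalization (log2 fold change -0.72, limma adjusted p = 0.0492). Counts of all genes are given above for median-ratio scaling and are not given here for quantile normalization. By the 2-fold rule, a minimum mean FPKM of 1 left 0 receptors in either condition, no filter gave 2 under differentiation conditions (Pdgfrb and Erbb3), and leaving out a library gave 0 to 1 under proliferating conditions. Whether the replicate numbers pair the samples could not be decided. Same-numbered Ctrl and NAD+ libraries correlated around their group means at 0.188, 0.0418 and 0.104 under proliferating and at 0.0431, 0.0894 and 0.0084 under differentiation conditions. Libraries with different numbers correlated at between -0.19 and 0.13 under proliferating and between -0.0891 and 0.0466 under differentiation conditions. All of these values were weak, and the ranges overlapped. With the replicate block, 0 receptors passed under proliferating and 1 under differentiation conditions (Fgfr2, limma adjusted p = 0.0446), 4 and 4 between the conditions and 0 in the test of the difference, Il2rb under differentiation conditions had an adjusted p of 0.0806, and the genes that passed went from 27 to 0 and from 1357 to 758. No other receptor value crossed the threshold with the block.

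Over these alternatives, the genes called by adjusted p numbered 0 to 75 under proliferating conditions (27 as reported), 328 to 1589 under differentiation conditions (1357) and 12 to 195 in the test of the difference (91). By the 2-fold rule, 559 genes were called under proliferating and 795 under differentiation conditions, 122 and 224 with a minimum mean FPKM of 1, and 951 and 1211 without a filter. With median-ratio scaling, the genes higher and lower by adjusted p were 7 and 26 in place of 9 and 18 under proliferating conditions, and 74 and 22 in place of 43 and 48 in the test of the difference.

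Among log2 fold changes that did not pass as reported, signs turned in some settings, and the cause was not tested. Leaving out 1 library at a time, NAD+ against Ctrl under proliferating conditions ranged from -0.16 to 0.0799 for Erbb2, from -0.51 to 1.54 for Erbb4, from -0.21 to 0.0189 for Fgfr3, from -0.0668 to 0.26 for Igf1r and from -0.37 to 0.29 for Epor. For Erbb2 under differentiation conditions it ranged from -0.10 to 0.11. From proliferating to differentiation conditions with NAD+, the range was -0.0149 to 0.11 for Egfr and -0.0456 to 0.11 for Fgfr3. The difference of the NAD+ effects ranged from -0.0738 to 0.16 for Erbb2, from -1.44 to 0.60 for Erbb4, from -0.36 to 0.0485 for Pdgfrb and from -0.16 to 0.0294 for Fgfr1. With median-ratio scaling and quantile normalization, the change of Egfr from proliferating to differentiation conditions in Ctrl was 0.10 and 0.28 (limma adjusted p = 0.349 and 0.0366), and the difference of the NAD+ effects for Fgfr1 was 0.10 and 0.0447. For Pdgfrb that difference was 0.0231 with 1 added before log2 and 0.0254 with quantile normalization. With only FPKM values, the depth that limits Pdgfrb, Erbb3, Epor and Il2rb is unknown.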

Other observations

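Ratios of 2 receptors within a library, which need no scaling between libraries, were computed for 3 pairs chosen after the values were seen. The ratio of Egfr to Fgfr1, the receptors for the 2 growth factors of the culture medium, was 1.66, 1.58 and 1.62 in the proliferating Ctrl libraries and 1.15, 0.91 and 1.03 in the proliferating NAD+ libraries. Under differentiation conditions it was 1.27, 1.34 and 1.33 in Ctrl and 1.00, 1.02 and 0.863 with NAD+. The NAD+ libraries were lower than the Ctrl libraries of the same condition in both, with no overlap (exact permutation test, p = 0.10 in each, the smallest possible). The ratio of Fgfr2 to Fgfr3 was 0.205 ± 0.0037 in Ctrl and 0.354 ± 0.04 with NAD+ under differentiation conditions (SD, n = 3 each, no overlap, exact permutation test, p = 0.10), and 0.13 ± 0.0289 and 0.151 ± 0.0225 under proliferating conditions, where the groups overlapped. The ratio of Fgfr2 to Fgfr1 overlapped between Ctrl and NAD+ in both conditions.

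For each receptor with a mean of at least 1 FPKM, the 3 genes with the most similar pattern over the 12 libraries were sought among 12928 genes. The libraries share the 4 groups and the shift of the FPKM total towards mitochondrial genes, so many genes run alike, and the correlations are descriptions. Fgfr2 was closest to Rida, Ctsb and H2-D1 (r = 0.995, 0.993 and 0.993), Igf1r to Megf9, Tram2 and Arid5a (r from 0.992 to 0.98) and Erbb4 to Ncoa2, Tjp1 and Dennd5b (r from 0.986 to 0.981). Erbb2 was closest to Rhbdd1, Slc7a5 and Itga9, Fgfr1 to Stx17, Adarb1 and Klhl28, and Fgfr3 to Tub, B230334C09Rik and Sema5b, with r between 0.919 and 0.964. Egfr was closest to Tmem229a, Ptprd and Gria4 (r from 0.914 to 0.902) and Pdgfra to Lhfpl3, AC109619 and Cntn1 (r from 0.924 to 0.909).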
